A study of Arabidopsis thaliana with 104 samples.

Results

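Purple acid phosphatases are metal-containing enzymes that release inorganic phosphate (Pi) from organic phosphate esters, and 10 of their genes, PAP5, PAP10, PAP12, PAP14, PAP17, PAP22, PAP23, PAP24, PAP25 and PAP26, were followed across 12 groups of whole Arabidopsis thaliana seedlings. The genes were taken by locus identifier and are 10 of the 27206 loci in the count table. All 10 were among the 18926 genes tested. Seedlings were germinated for 7 days on medium with 1 mM Pi and 0.5% sucrose and were then held for 12 days on medium without sucrose. That medium contained 625 µM Pi (high Pi) or 50 µM Pi (low Pi), either without bacteria or with a bacterial synthetic community (SynCom). Genotypes were the reference accession Col-0, the single mutant phr1 and the double mutant phr1phl1. The sources used here name no allele of either mutant. Col-0 and phr1 were sampled in 5 experiments, named A to E, with 2 libraries of each group per experiment, so each of their groups held 10 libraries. The double mutant was sampled in experiments C, D and E alone, so its groups held 6 libraries each.

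Plants short of Pi make and secrete purple acid phosphatases, which act in the cell wall, at the root surface, in the surrounding medium and in the vacuole to recover Pi from organic compounds. PHR1 and its relative PHL1 are MYB-type proteins that bind a short DNA element called P1BS and so activate genes of the Pi starvation response. When Pi is plentiful, SPX proteins hold these factors away from DNA.

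The targeted genes were examined first. PHR1 mRNA averaged 68.0 ± 9.92 CPM (SD, n = 40) in Col-0, 37.0 ± 9.48 CPM (n = 40) in phr1 and 38.6 ± 9.24 CPM (n = 24) in phr1phl1. CPM are counts per 1000000 of a library total that was adjusted by a scaling factor for each library (TMM). PHL1 mRNA went against the label of the double mutant: it was 13.5 ± 3.66 CPM in Col-0 and 13.8 ± 3.87 CPM in phr1, but 135 ± 182 CPM in libraries labelled phr1phl1, whose range of 42.0 to 972 CPM lay above every Col-0 library. The levels say nothing of whether that RNA encodes a working protein, and the libraries are therefore called "labelled phr1phl1" throughout. The libraries held 955174 to 9550846 counts each (median 4335781.5). By low depth or a large residual spread, 4 libraries stood apart, namely phr1 at high Pi without bacteria (experiment D, library 1), phr1phl1 at high Pi without bacteria (D, library 1), Col-0 at low Pi with SynCom (D, library 2) and phr1phl1 at low Pi without bacteria (E, library 2). Results that moved without them are given with and without them.

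The sequences just upstream of 5 of these genes are shown because they hold P1BS, the PHR1 element, within 250 bases of the annotated gene start. P1BS was searched as GNATATNC, which is its own reverse complement, so a hit on one strand is a hit on both. Each line runs 5′ to 3′ on the strand of the gene and ends at the base before its start, and the capitals mark the P1BS match. The windows, from RefSeq gene starts on TAIR10.1, are chr1:19716152-19716401 on the plus strand for PAP5, chr2:19266457-19266706 on the minus strand for PAP14, chr4:7958920-7959169 on the minus strand for PAP23, chr4:12814457-12814706 on the minus strand for PAP24 and chr4:17175858-17176107 on the minus strand for PAP25.
PAP5: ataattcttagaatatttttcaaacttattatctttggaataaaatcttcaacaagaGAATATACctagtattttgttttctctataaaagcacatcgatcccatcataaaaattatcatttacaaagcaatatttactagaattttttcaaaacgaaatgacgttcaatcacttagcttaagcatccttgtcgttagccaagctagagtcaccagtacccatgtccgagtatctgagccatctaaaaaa
PAP14: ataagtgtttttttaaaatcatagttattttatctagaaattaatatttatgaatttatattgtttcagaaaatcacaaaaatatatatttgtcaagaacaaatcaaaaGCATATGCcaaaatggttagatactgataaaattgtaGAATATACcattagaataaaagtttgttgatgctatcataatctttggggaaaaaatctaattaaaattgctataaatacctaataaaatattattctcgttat
PAP23: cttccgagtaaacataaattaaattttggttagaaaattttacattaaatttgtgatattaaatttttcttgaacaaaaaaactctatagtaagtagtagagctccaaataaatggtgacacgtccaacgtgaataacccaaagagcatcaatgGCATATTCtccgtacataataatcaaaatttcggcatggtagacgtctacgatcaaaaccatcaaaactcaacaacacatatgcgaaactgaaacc
PAP24: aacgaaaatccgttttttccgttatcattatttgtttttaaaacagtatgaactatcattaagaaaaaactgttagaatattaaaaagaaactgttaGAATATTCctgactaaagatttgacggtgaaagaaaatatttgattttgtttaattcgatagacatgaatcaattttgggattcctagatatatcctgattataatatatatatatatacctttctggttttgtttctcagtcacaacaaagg
PAP25: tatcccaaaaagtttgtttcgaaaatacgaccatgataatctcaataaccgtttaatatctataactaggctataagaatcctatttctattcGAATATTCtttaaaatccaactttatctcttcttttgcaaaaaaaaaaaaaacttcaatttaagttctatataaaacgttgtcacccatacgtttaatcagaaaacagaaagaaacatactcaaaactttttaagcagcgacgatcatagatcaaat
Counting back from the start, PAP14 held a pair of matches, at positions -141 and -104, and 43 bases of its window are also exon of the neighbouring locus AT2G46890. The match began at -193 in PAP5, at -96 in PAP23, at -153 in PAP24 and at -157 in PAP25.

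Within 250 bases before the start, 5 of the 10 genes held P1BS, against 5.46% of 27443 annotated genes. The window of 300 bases that also takes in the first 50 bases of the gene added PAP12, with a match at base 32 of the gene, making 6 of 10 against 6.25% of all genes. In 1000 bases before the start, 6 of 10 held a match against 20.3%, the added gene being PAP26, with a match at -902. No match to these letters lay in any of those windows of PAP10, PAP17 or PAP22, which says nothing about binding elsewhere. Among the other 19 genes of the family, 7 held a match in the window of 300 bases, 6 in the 250 bases before the start and 11 in the 1000 bases before it.

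**Figure D1:**
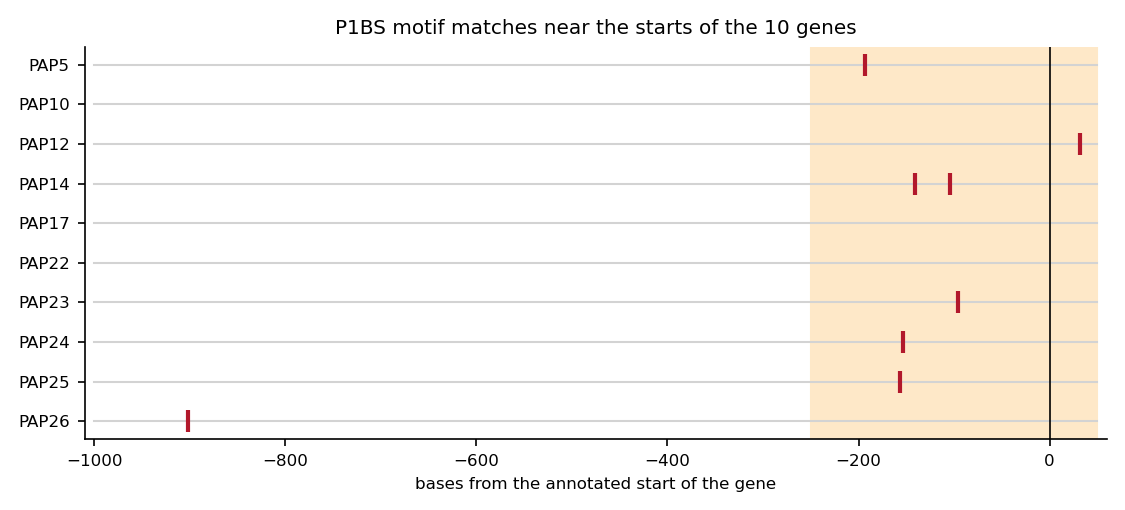
Position of each P1BS match (GNATATNC, vertical ticks) relative to the annotated gene start, in bases, for the 10 purple acid phosphatase genes from 1000 bases before to 50 bases after it. The matches of PAP5, PAP14, PAP23, PAP24 and PAP25 lie between -193 and -96, that of PAP12 lies at base 32 of the gene, that of PAP26 at -902, and PAP10, PAP17 and PAP22 have none.

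Without bacteria, no member passed the test for low against high Pi in any of the 3 genotypes. In Col-0, 0 of the 10 genes passed the threshold of an adjusted p under 0.05 (edgeR quasi-likelihood test, Benjamini-Hochberg adjustment over all genes tested), where 0.0264% of all genes did. At an unadjusted p under 0.05 there were 4, PAP5, PAP14, PAP17 and PAP22, beside 372 of all 18926 genes, and DESeq2 called 0. The counts in phr1 and in seedlings labelled phr1phl1 were 0 of 10 each, with 0% of all genes called in both, 0 members at an unadjusted p under 0.05 and 0 by DESeq2. Over all genes, 1028 in phr1 and 1099 in libraries labelled phr1phl1 stood at an unadjusted p under 0.05, and DESeq2 called 80 and 4. PAP17 is an example: in Col-0 it spanned 1.95, 5.91 and 14.6 CPM (lowest, median and highest library) at high Pi and 3.31, 8.49 and 43.8 CPM at low Pi. Its ranges overlapped, and the log2 fold change was 0.88 ± 0.33 (SE; adjusted p = 1.00).

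One Col-0 library at low Pi without bacteria, the first of experiment B, carried much of that range. PAP14 had 27 counts there (4.28 CPM) and 0 counts in the other 9 libraries of the group. The same library was the highest of its group for PAP5 (0.952 CPM), PAP10 (27.6 CPM), PAP17 (43.8 CPM), PAP22 (7.46 CPM), PAP23 (0.159 CPM), PAP24 (0.952 CPM) and PAP25 (0.793 CPM).

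With SynCom, low Pi raised 9 of the 10 mRNAs in Col-0, where 27.5% of all genes were called higher. The median log2 fold change of the 10 genes was 5.88, against 0.04 over all genes tested. PAP26 was the exception. The count was also 9 without the 4 libraries that stood apart. PAP5, PAP23, PAP24 and PAP25 passed the filter on low counts only through their level in this low Pi group. PAP14 would not have passed without that group. Being high there was thus a condition of their being tested. Their calls, their adjusted p and the median of 5.88 are therefore not independent of the choice of genes tested. Several genes went from none or almost no counts to clearly measured levels. Since whole seedlings were sequenced, fewer cells of a type and less RNA per cell cannot be told apart in any of these comparisons.

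**Figure D2:**
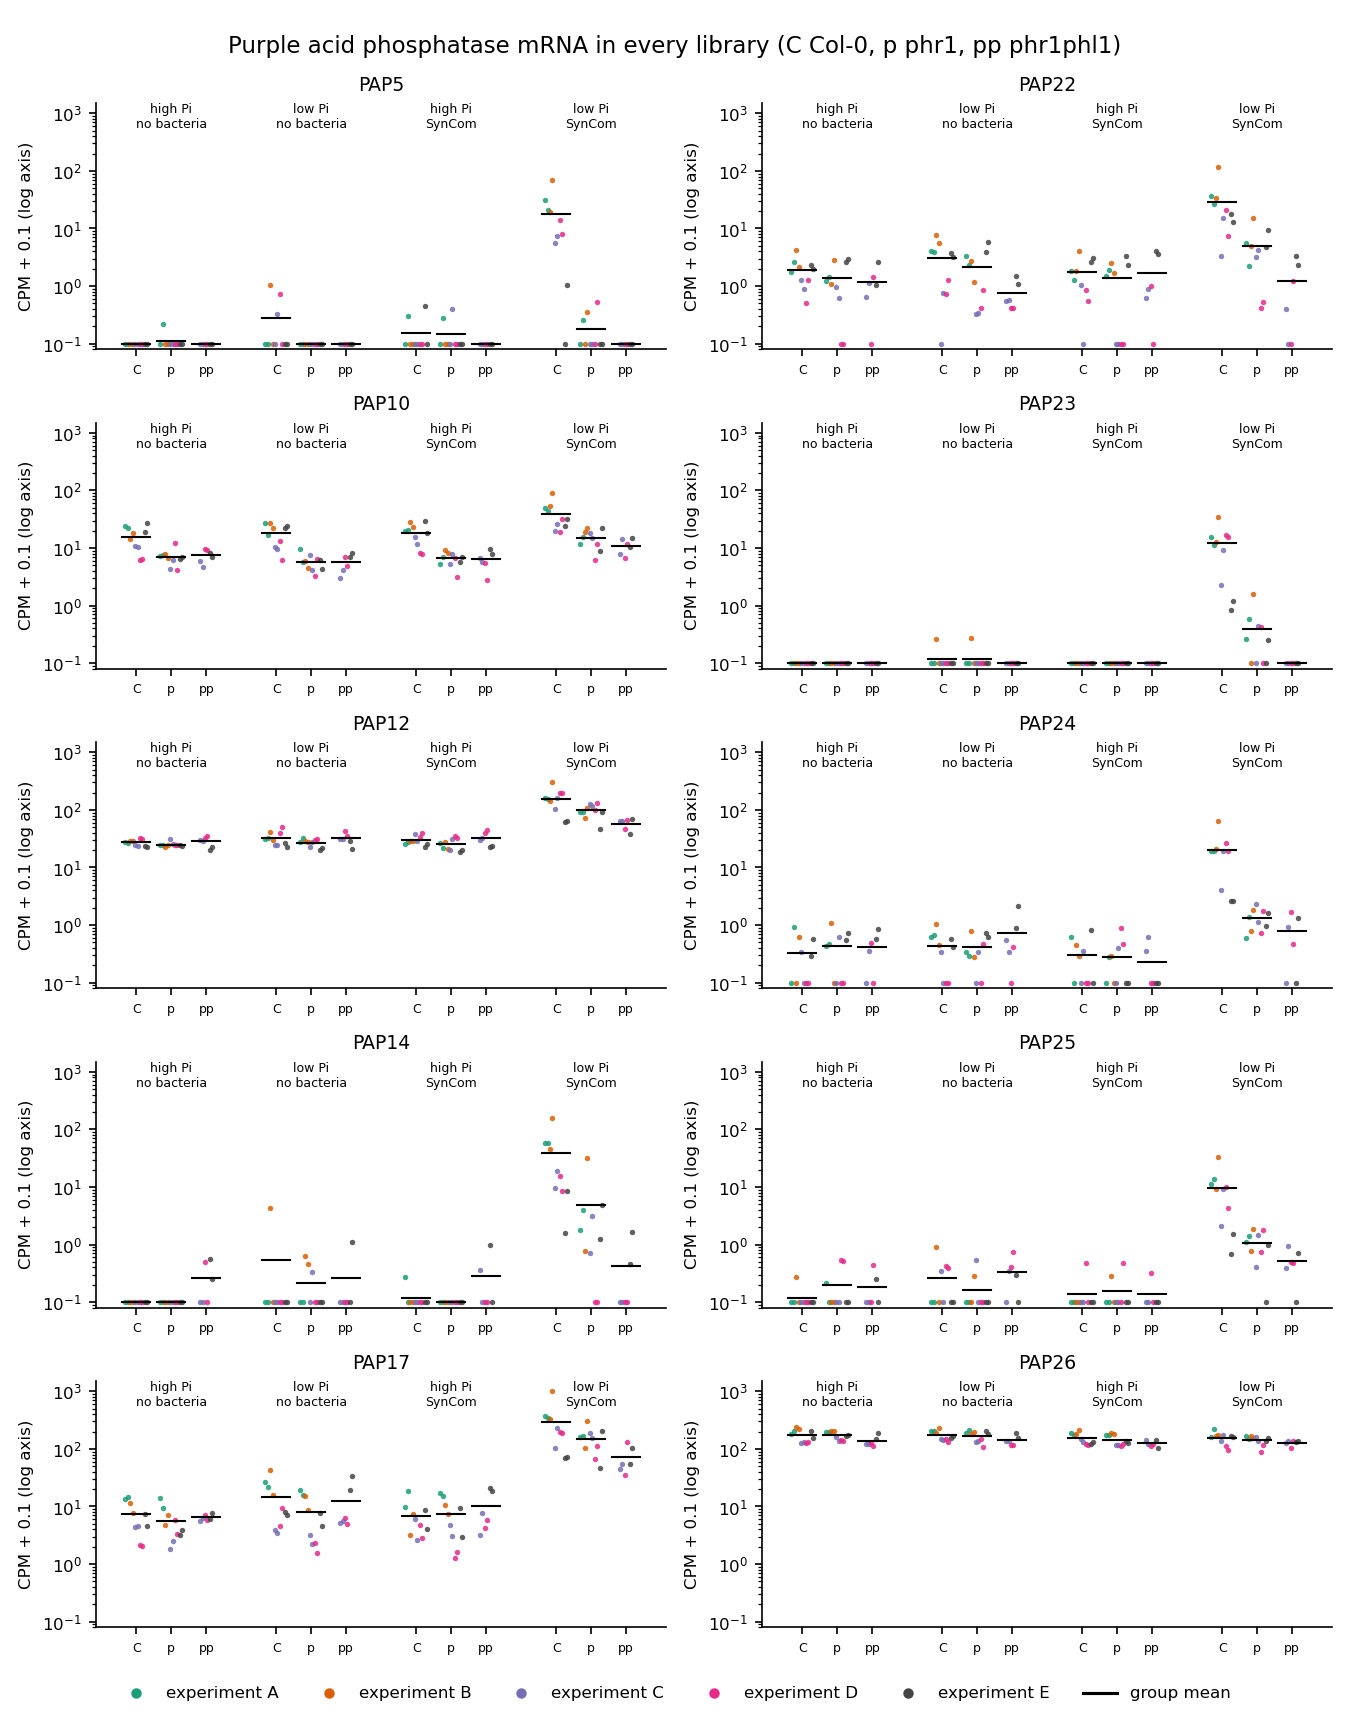
Level of each purple acid phosphatase mRNA in every library (points, CPM + 0.1 on a log axis, coloured by experiment A to E) in Col-0 (C), phr1 (p) and the libraries labelled phr1phl1 (pp), with black lines at the group means. For every gene but PAP26 the Col-0 group mean at low Pi with SynCom is the highest, though single points overlap with other groups, as for PAP17 at 68.2 to 1011 CPM in Col-0 and 47.3 to 311 CPM in phr1, while PAP26 stays between 94.9 and 239 CPM in Col-0.

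Among the enzymes known as secreted phosphatases, PAP10 (AT2G16430, chr2:7120372-7123079 on TAIR10.1, minus strand, 7 exons) is associated with the root surface. In Col-0 with SynCom its lowest, median and highest library were 7.71, 18.9 and 28.8 CPM at high Pi and 19.1, 31.9 and 88.4 CPM at low Pi. The 2 groups overlapped, and the log2 fold change was 1.08 ± 0.18 (adjusted p = 5.51e-07). The annotation places 177 exonic bases of PAP10 under the opposite-strand locus AT2G06625, which has no row in the count table, and these libraries carried no strand information.

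PAP12 (AT2G27190, chr2:11621222-11623618, minus strand, 7 exons) is a major secreted acid phosphatase of Pi-starved plants. It rose from 22.4, 28.4 and 40.1 CPM at high Pi to 60.5, 159 and 310.2 CPM at low Pi. The groups did not overlap, and the log2 fold change was 2.34 ± 0.13 (adjusted p = 6.20e-29).

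PAP26 (AT5G34850, chr5:13107626-13111656, minus strand, 9 exons) is the other major secreted enzyme and is also found in the vacuole. Its libraries ran from 118 through 142 to 215 CPM at high Pi and from 94.9 through 166 to 222 CPM at low Pi. The ranges largely coincided, and the log2 fold change of 0.04 had an interval of -0.11 to 0.18 (95%; adjusted p = 0.703).

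PAP17 (AT3G17790, chr3:6089381-6091231, plus strand, 3 exons), also called ACP5, is a Pi starvation-responsive phosphatase that also has peroxidase activity. It stood at 2.47, 5.34 and 18.7 CPM at high Pi and at 68.2, 215 and 1011 CPM at low Pi. Every library at low Pi exceeded every library at high Pi, and the log2 fold change was 5.47 ± 0.35 (adjusted p = 5.62e-25). PAP17 shares 122 exonic bases with the opposite-strand gene AT3G17800, whose own log2 fold change was -0.56 ± 0.27 (adjusted p = 0.0825).

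PAP22 and PAP24, for which no role is given here, were low at high Pi. PAP22 had 69 counts over the 10 libraries there. PAP24 had 9, with 5 libraries at 0, so its fold change rests on few counts. PAP22 (AT3G52820, chr3:19573916-19577141, minus strand, 6 exons) went from 0, 1.45 and 3.97 CPM to 3.19, 19.2 and 119 CPM, groups that overlapped slightly, with a log2 fold change of 4.19 ± 0.31 (adjusted p = 6.22e-23). PAP24 (AT4G24890, chr4:12811354-12814456, minus strand, 12 exons) went from 0, 0.0946 and 0.712 CPM to 2.49, 19.6 and 63.1 CPM. Its groups did not overlap, and the log2 fold change was 6.29 ± 0.41 (adjusted p = 2.03e-29). PAP24 shares 392 exonic bases with the opposite-strand gene AT4G24880, whose log2 fold change was -0.06 ± 0.12 (adjusted p = 0.709).

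The remaining 4 genes had at most 2 counts over all 10 Col-0 libraries at high Pi with SynCom, so their change is given as a ratio of CPM over the summed libraries, with a 95% interval that covers counting error only. PAP5 (AT1G52940, chr1:19716402-19723725, plus strand, 7 exons), linked to basal resistance against the bacterium Pseudomonas syringae, had 2 counts at high Pi and 925 at low Pi, a ratio of 382 (105 to 3158). Its low Pi libraries ran from 0 through 10.8 to 68.8 CPM and overlapped with the high Pi range of 0 to 0.356 CPM (adjusted p = 8.48e-18). PAP5 shares a run of 83 identical bases with PAP11, and how reads from there were counted is not stated.

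PAP14 (AT2G46880, chr2:19264573-19266456, minus strand, 3 exons), for which no role is given here, had 1 count at high Pi and 2137 at low Pi, a ratio of 1765 (316 to 69730). At low Pi it spanned 1.48, 17.1 and 160 CPM, all above the high Pi maximum of 0.170 CPM (adjusted p = 7.25e-21). PAP23 (AT4G13700, chr4:7957072-7958919, minus strand, 6 exons), an enzyme with phytase activity described from flowers, had 0 counts in all 10 libraries at high Pi and 562 at low Pi. It was at least 155-fold higher at low Pi, taking 3 counts over the whole high Pi group as the floor, and its low Pi libraries spanned 0.741, 11.9 and 34.3 CPM (adjusted p = 6.01e-14).

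PAP25 (AT4G36350, chr4:17173737-17175857, minus strand, 7 exons), a phosphatase known to appear under Pi starvation, had 1 count at high Pi and 483 at low Pi, a ratio of 399 (71.3 to 15790). Its low Pi libraries spanned 0.593, 9.12 and 33.4 CPM and did not overlap with the high Pi maximum of 0.384 CPM (adjusted p = 4.24e-23). PAP25 shares a run of 41 identical bases with PAP6.

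Per exon length, the order of the transcripts changed along with these rises. In Col-0 at high Pi without bacteria, PAP26 led with a mean of 67.1 CPM per kb, 69.9% of the sum over the 10 genes. PAP12 followed at 15.3 CPM per kb, PAP10 at 8.10 CPM per kb and PAP17 at 4.32 CPM per kb. At low Pi with SynCom, PAP17 led with 176.5 CPM per kb, 41.7% of the sum, ahead of PAP12 at 88.0 CPM per kb and PAP26 at 61.0 CPM per kb. The library ranges of these 3 overlapped (41.1 to 610.0, 34.2 to 175.4 and 36.7 to 85.9 CPM per kb), PAP17 led in 8 of 10 libraries, and PAP26 led in the other 2. PAP14 came next at 23.2 CPM per kb. The lower ranks, from PAP14 to PAP25 at 6.72 CPM per kb, had library ranges that overlapped with their neighbours.

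Organ markers moved in the same comparison. The summed level of 8 shoot photosynthesis genes went from a median of 47146 CPM (41635 to 56397) at high Pi to 26860 CPM (1333 to 42824) at low Pi with SynCom in Col-0, and 7 of the 8 fell. Of 8 root genes, 7 were tested. Their summed level went from 853 CPM (354 to 1202) to 1955 CPM (874 to 2688), and 6 of the 7 rose. None of the 16 markers was at 0 in any group. With SynCom at low Pi relative to no bacteria, 7 of the 8 shoot markers fell and 4 of the 7 root markers rose. The part of organ proportion in the purple acid phosphatase changes was not tested.

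Across the 5 experiments, the Col-0 response to low Pi with SynCom had the same positive direction for all 9 genes wherever an experiment alone gave a value, and it was smallest in experiment E for PAP10, PAP12, PAP14, PAP17, PAP22 and PAP24. PAP12 went from a log2 fold change of 2.94 in experiment B to 1.39 in E, PAP17 from 6.98 to 3.49, and PAP10 from 1.72 in experiment D to 0.22 in E. In experiment E alone, PAP12, PAP17 and PAP22 still passed the threshold, with adjusted p = 0.0300, 0.0115 and 0.00502. Only 43 genes of the whole table did so in that experiment, against 3488 to 6523 in each of the others. PAP5 was too low to be tested in E alone, and PAP23 and PAP25 in C and E. Library 2 of experiment B was the highest of the group for all 9 genes, and a library of experiment E was the lowest for PAP5, PAP12, PAP14, PAP17, PAP23, PAP24 and PAP25.

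**Figure D3:**
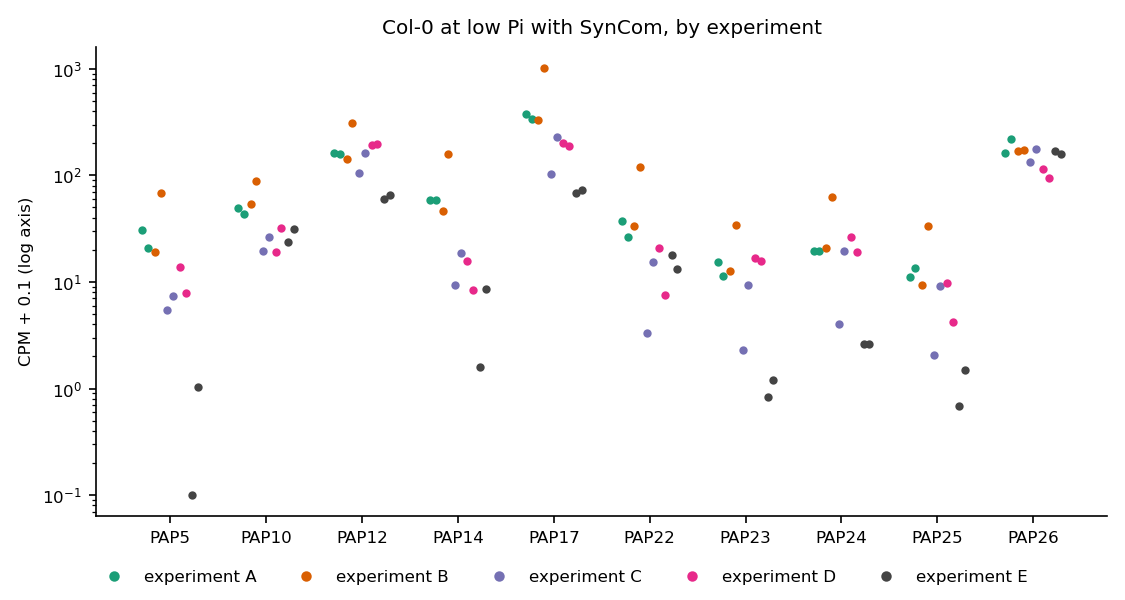
Levels of the 10 mRNAs in the 10 Col-0 libraries at low Pi with SynCom (points, CPM + 0.1 on a log axis, coloured by experiment, 2 libraries each). The points of experiment B reach highest, as for PAP17 at 1011 CPM, the points of experiment E lie at or near the bottom for most genes, and PAP26 lies between 94.9 and 222 CPM in every experiment.

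Seen from the bacteria, SynCom raised the same 9 mRNAs in Col-0 at low Pi, where 24.4% of all genes were called higher. The log2 fold changes, relative to low Pi without bacteria, were 1.08 ± 0.18 for PAP10, 2.23 ± 0.13 for PAP12, 4.45 ± 0.32 for PAP17, 3.27 ± 0.27 for PAP22, 5.41 ± 0.35 for PAP24, 6.54 ± 0.44 for PAP5, 6.51 ± 0.49 for PAP14 and 5.73 ± 0.42 for PAP25. The low level of the last 3 without bacteria rests largely on library 1 of experiment B, which held 6 of 9 counts of PAP5, 27 of 27 of PAP14 and 5 of 8 of PAP25. With so few counts, their SE, which was derived from the test statistic, may be too small. The ratios of summed CPM were 114 (95% counting interval 59.8 to 250.01) for PAP5, 87.8 (60.1 to 133) for PAP14 and 66.9 (33.7 to 156) for PAP25. Without that library they were 303 (103 to 1470) for PAP5, at least 699-fold for PAP14 by the floor of 3 counts over the group, and 158 (53.8 to 769) for PAP25. PAP23 had 1 count without bacteria and 562 with SynCom, a ratio of 623 (95% counting interval 111 to 24660). The 1 count of PAP23 came from the same library, and without it the gene was at least 184-fold higher. The largest adjusted p among these 9 genes was 5.61e-07, for PAP10. This comparison shares its low Pi SynCom libraries with the one above, so the pair of results is not independent. The limit set by the filter for PAP5, PAP14, PAP23, PAP24 and PAP25 holds here as well.

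At high Pi SynCom moved 0 of the 10 genes in Col-0 by edgeR, where 4.11% of all genes were called. The count was 1 at an unadjusted p under 0.05, PAP26, and 0 by DESeq2. In seedlings labelled phr1phl1 it was likewise 0 of 10, with 2.4% of all genes called, 0 at an unadjusted p under 0.05 and 0 by DESeq2. In phr1, PAP26 was the single gene called, among the 2.4% of all genes that were called lower.

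PAP26, not called for Pi in any genotype, had small differences with SynCom. In phr1 at high Pi it spanned 136, 168 and 206 CPM without bacteria and 110, 132 and 186 CPM with SynCom. The ranges overlapped, the log2 fold change was -0.26 ± 0.07 (adjusted p = 0.0192), and the difference was negative in 5 of 5 experiments, from -0.36 to -0.18. In Col-0 at high Pi the value was -0.16 ± 0.07 (adjusted p = 0.269) and in seedlings labelled phr1phl1 it was -0.13 ± 0.10 (adjusted p = 0.537). In phr1 at low Pi PAP26 also fell with SynCom, by 0.22 ± 0.07 on the log2 scale (adjusted p = 0.0159), and there the direction held in 4 of 5 experiments. Both calls were lost without experiment A (adjusted p = 0.0527 at high Pi and 0.0701 at low Pi) and without experiment E (0.0734 and 0.0633), the high Pi call also without C (0.0959) and the low Pi call also without D (0.0503).

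The test of the interaction asked whether the Pi response differed between seedlings with and without bacteria. In Col-0 it was larger with SynCom for 5 genes, where 16% of all genes were called higher. PAP24 passed the filter on low counts through Col-0 at low Pi with SynCom, so the count of 5 is not independent of that choice. The differences of the log2 responses were 0.92 ± 0.26 for PAP10 (adjusted p = 0.00426), 2.11 ± 0.18 for PAP12 (1.81e-16), 4.59 ± 0.47 for PAP17 (6.18e-13), 3.49 ± 0.48 for PAP22 (9.42e-09) and 5.78 ± 1.04 for PAP24 (5.96e-06). The PAP24 value rests on few counts, 14 at high Pi and 22 at low Pi without bacteria, and 9 at high Pi with SynCom. For PAP5, PAP14, PAP23 and PAP25 the groups without bacteria had too few counts for this test to give a usable error. DESeq2 called 7 genes. The PAP10 call was lost without experiment A (0.80, adjusted p = 0.0517).

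In phr1, PAP10 (1.43 ± 0.30), PAP12 (1.88 ± 0.18), PAP17 (4.17 ± 0.48) and PAP24 (3.29 ± 0.97; adjusted p = 0.0241) had a larger Pi response with SynCom, 4 of 10 genes against 3.68% of all genes called higher. PAP24 lost its call when experiment A, B or C was left out (adjusted p = 0.0772, 0.0727 and 0.129). Among libraries labelled phr1phl1, PAP17 alone passed, with 2.30 ± 0.62 (adjusted p = 0.0224), against 2.46% of all genes called higher. That PAP17 call was lost without experiment C (1.78, adjusted p = 0.305) or D (1.47, adjusted p = 0.479).

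Most of these genes also rose in phr1. At low Pi with SynCom 8 of the 10 did so, against 13.4% of all genes called higher, and the median log2 fold change of the 10 genes was 2.45 against 0.02 over all genes. PAP12 spanned 18.2, 24.0 and 35.5 CPM at high Pi and 47.3, 96.3 and 134 CPM at low Pi, without overlap, a log2 fold change of 1.97 ± 0.13 (adjusted p = 1.59e-23). PAP17 spanned 1.18, 6.01 and 16.8 CPM at high Pi and 47.3, 157 and 311 CPM at low Pi, again without overlap, with 4.68 ± 0.34 (adjusted p = 4.52e-21). PAP10 rose by 1.21 ± 0.21 on the log2 scale, PAP22 by 1.95 ± 0.36 and PAP24 by 2.93 ± 0.67. Of the markers, 6 of the 8 shoot genes fell and 1 of the 7 tested root genes rose in the same comparison.

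Of the 4 lowest genes, 3 also passed the test in phr1. PAP14 had 0 counts at high Pi and 215 at low Pi and was at least 61.5-fold higher (adjusted p = 5.87e-09), and 126 of those counts came from 1 library. PAP25 had 2 and 42 counts, a ratio of 18.0 (4.69 to 154; adjusted p = 7.03e-05). PAP23 had 0 and 13 counts and was at least 3.72-fold higher (adjusted p = 0.0189), a call that DESeq2 did not make (adjusted p = 0.506). PAP5 stayed at 0 to 0.419 CPM in phr1 at low Pi and did not pass the test, nor did PAP26 (0.01 ± 0.07, adjusted p = 0.942).

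In seedlings labelled phr1phl1, whose PHL1 mRNA was high as described above, 3 genes rose at low Pi with SynCom, against 10.5% of all genes called higher, and the median over the 10 genes was 0.85 against 0.01. PAP17 spanned 3.09, 6.74 and 20.6 CPM at high Pi and 35.6, 55.2 and 134 CPM at low Pi, without overlap, and rose by 3.01 ± 0.42 (adjusted p = 1.64e-07). PAP12 spanned 22.3, 30.8 and 44.2 CPM and 37.7, 63.1 and 68.2 CPM, with overlap, and rose by 0.91 ± 0.17 (adjusted p = 5.24e-05). PAP10 rose by 0.79 ± 0.30 (adjusted p = 0.0492) and lost that call when any 1 of the 5 experiments except B was left out, with values from 0.66 to 0.91 and adjusted p from 0.0538 to 0.238. PAP22, which rose in the other 2 genotypes, had a log2 fold change of -0.47 ± 0.68 here, with a negative sign in 3 of 3 experiments and no call. PAP5 and PAP23 had 0 counts in all 6 libraries at low Pi and in all 6 at high Pi. PAP14, PAP24 and PAP25 had 6, 11 and 7 counts over the low Pi group and 3, 3 and 1 over the high Pi group. The median of 0.85 includes these genes, whose fold changes rest on few counts or none. The summed shoot markers went from a median of 46519 CPM (31532 to 78940) to 31062 CPM (24811 to 37854) and 3 of the 8 fell, while the summed root markers went from 858 CPM (337 to 1049) to 1133 CPM (929 to 1672), with 2 of the 7 tested higher and 1 lower. Their part was not tested.

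**Figure D4:**
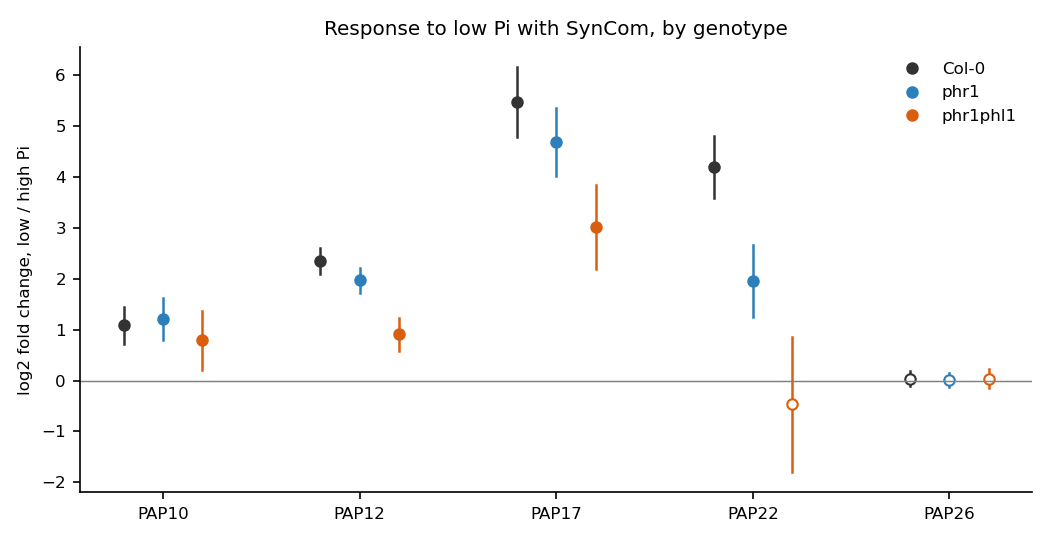
Log2 fold change of low against high Pi with SynCom (points, edgeR) in Col-0, phr1 and libraries labelled phr1phl1. Lines are 95% intervals from the SE, which was derived from the test statistic. The genes shown had more than 3 counts in every high Pi group, and filled points passed the test. Values of Col-0 and phr1 cover experiments A to E, those of libraries labelled phr1phl1 C, D and E alone. PAP17 lies at 5.47 in Col-0, 4.68 in phr1 and 3.01 in libraries labelled phr1phl1, PAP12 at 2.34, 1.97 and 0.91, PAP22 at 4.19, 1.95 and -0.47, and PAP26 lies near 0 in each.

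The effect of SynCom at low Pi was read in the mutants as well. In phr1, 8 genes rose with SynCom, against 15% of all genes called higher, and PAP26 fell, against 12.2% called lower. The rises on the log2 scale were 1.38 ± 0.21 for PAP10, 1.86 ± 0.13 for PAP12, 5.21 ± 0.74 for PAP14, 4.56 ± 0.33 for PAP17, 1.21 ± 0.32 for PAP22 and 1.84 ± 0.55 for PAP24. PAP25 had 3 counts without bacteria and 42 with SynCom, a ratio of 14.7 (4.70 to 74.1), and PAP23 had 1 and 13, a ratio of 13.7 (2.05 to 580; adjusted p = 0.0409). The PAP23 call was lost without C, D or E (adjusted p = 0.0623, 0.0736 and 0.0550) and in DESeq2 (0.496), the PAP22 call without B (0.85, adjusted p = 0.0578) and the PAP24 call without C (1.59, adjusted p = 0.0642). Among libraries labelled phr1phl1, PAP10 rose by 1.00 ± 0.30 (adjusted p = 0.0159), PAP12 by 0.88 ± 0.17 (8.13e-05) and PAP17 by 2.81 ± 0.41 (4.00e-07), 3 of 10 genes against 8.3% called higher. The PAP10 call was lost without experiment C (0.70, adjusted p = 0.317). Of the markers in phr1, 6 of the 8 shoot genes fell, while 1 of the 7 tested root genes rose and 2 fell. Among libraries labelled phr1phl1, 0 of the 8 shoot markers were called and 2 of the 7 root markers fell. The part of organ proportion was not tested.

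PAP10 was lower in phr1 than in Col-0 in every condition, also in the 3 where no other member was called. At high Pi without bacteria its lowest, median and highest libraries were 6.05, 16.2 and 26.7 CPM in Col-0 and 4.08, 6.78 and 12.0 CPM in phr1. At low Pi without bacteria they were 6.04, 19.6 and 27.6 CPM against 3.19, 5.73 and 9.60 CPM, and at high Pi with SynCom 7.71, 18.9 and 28.8 CPM against 3.001, 6.82 and 9.21 CPM. The ranges overlapped in each case while the medians stood well apart.

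The fitted log2 differences of PAP10, phr1 minus Col-0, were -1.22 ± 0.20 at high Pi without bacteria (adjusted p = 6.32e-05), -1.61 ± 0.20 at low Pi without bacteria (1.34e-08), -1.44 ± 0.21 at high Pi with SynCom (1.75e-06) and -1.32 ± 0.18 at low Pi with SynCom (3.97e-08). In the first 3 of these conditions it was 1 of 10 members called, where 0.0528%, 0.0317% and 0.0264% of all genes were called lower. Each experiment alone gave a negative value in the latter 3 conditions. At high Pi without bacteria experiment D went the other way (0.37), and the difference was -1.38 without the 4 libraries that stood apart and -1.46 without experiment D. With experiments C, D and E alone the high Pi calls were lost, at -1.03 (adjusted p = 0.486) without bacteria and -1.26 (adjusted p = 0.113) with SynCom.

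For the Pi response of PAP10 no difference was called between the genotypes. The difference between the Pi responses of phr1 and Col-0 with SynCom was 0.12 ± 0.27 on the log2 scale (95% interval -0.42 to 0.66; adjusted p = 0.847). For libraries labelled phr1phl1 against Col-0 it was -0.30 ± 0.35 (adjusted p = 0.598). The annotated opposite-strand overlap of PAP10 holds for these values too.

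**Figure D5:**
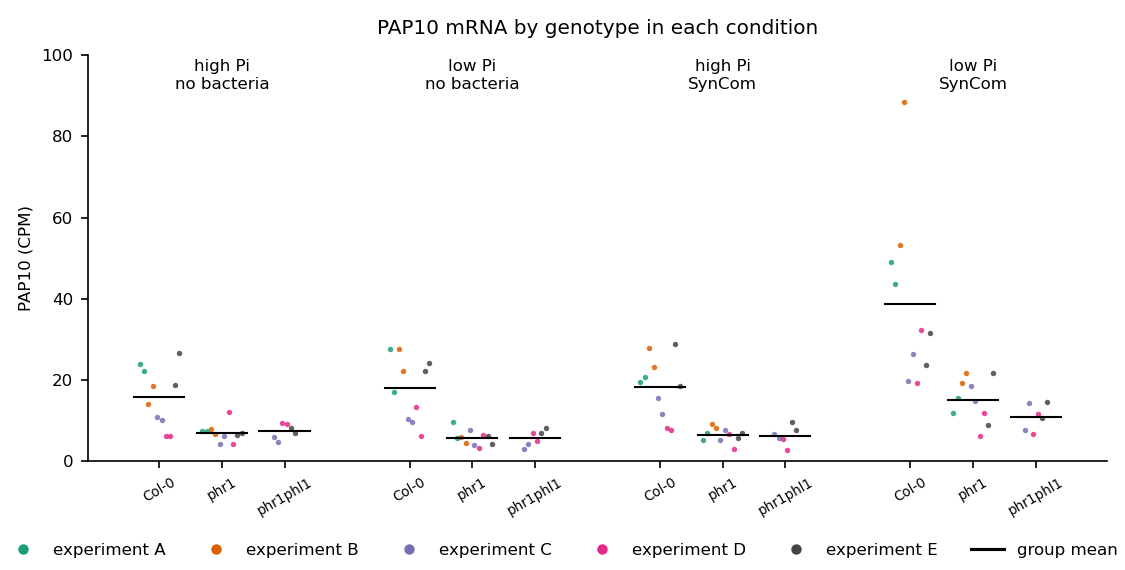
PAP10 mRNA (CPM, linear axis from 0) in every library by genotype within the 4 conditions, with points coloured by experiment and black lines at group means. The Col-0 medians of 16.2, 19.6, 18.9 and 31.9 CPM lie above the medians of phr1 (6.78, 5.73, 6.82 and 15.1 CPM) and of libraries labelled phr1phl1 (7.58, 5.81, 6.13 and 11.01 CPM), while points overlap: at high Pi without bacteria Col-0 reaches down to 6.05 CPM and phr1 up to 12.0 CPM. The Col-0 and phr1 medians cover experiments A to E, those of libraries labelled phr1phl1 C, D and E alone. In D at high Pi without bacteria, libraries labelled phr1phl1 (9.41 and 9.04 CPM) lie above Col-0 (6.05 and 6.25 CPM).

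In libraries labelled phr1phl1, PAP10 was also lower than in Col-0. The log2 differences were -1.44 ± 0.27 at low Pi without bacteria (adjusted p = 0.00103), -1.22 ± 0.26 at high Pi with SynCom (0.0127) and -1.51 ± 0.24 at low Pi with SynCom (5.01e-07). It was the 1 member called in the first and the second of these, where 0.0317% and 0.0581% of all genes were called lower. At high Pi without bacteria 0 of 10 members were called by edgeR, where 0.0317% of all genes were called lower, with PAP10 (-0.87 ± 0.25, adjusted p = 0.103) and PAP14 the 2 members at an unadjusted p under 0.05 and 0 by DESeq2. There PAP10 was higher than in Col-0 in experiment D (log2 difference 0.58) and lower in the other 2 experiments that hold these libraries. The calls at low Pi without bacteria and at high Pi with SynCom were lost without experiment C (adjusted p = 0.169 and 0.170) or E (0.171 and 0.104). With experiments C, D and E alone, the high Pi SynCom difference was -1.19 (adjusted p = 0.169).

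At low Pi with SynCom, where the genes were highest, 9 of the 10 were lower in phr1 than in Col-0, against 14.1% of all genes called lower. PAP5, PAP14, PAP23, PAP24 and PAP25 passed the filter on low counts through this same Col-0 group. A lower value in phr1 was thus favoured in advance for them, and the count of 9 is not independent of that choice. PAP24 separated the genotypes fully, with 2.49, 19.6 and 63.1 CPM in Col-0 and 0.501, 1.15 and 2.18 CPM in phr1, a log2 difference of -3.85 ± 0.31 (adjusted p = 1.03e-21). PAP23 stood at 0.741, 11.9 and 34.3 CPM against 0, 0.158 and 1.49 CPM, with overlap, and differed by -5.17 ± 0.39 (1.13e-11; DESeq2 adjusted p = 0.0960). PAP5 had 925 counts in Col-0 and 3 in phr1, a ratio of 295 (101 to 1434).

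Of the other members called, PAP22 differed by -2.56 ± 0.26, PAP25 by -3.20 ± 0.32, PAP14 by -3.04 ± 0.36 and PAP12 by -0.62 ± 0.12. PAP12 and PAP17 did not keep 1 sign across the experiments, being negative in 4 of 5 and 3 of 5, and with experiments C, D and E alone they gave -0.28 (adjusted p = 0.264) and -0.25 (adjusted p = 0.708). PAP17 (-0.68 ± 0.27, adjusted p = 0.0495) lost its call without experiment A, B or D (adjusted p = 0.144, 0.370 and 0.210), without the libraries that stood apart (0.0771) and in DESeq2 (0.0742). PAP26 gave -0.12 ± 0.07 (adjusted p = 0.209). Root markers moved along here, with 5 of the 7 tested lower in phr1 and a summed median of 1361 CPM (864 to 2808) against 1955 CPM in Col-0, and their part was not tested.

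The libraries labelled phr1phl1 were lower than Col-0 for the same count of 9 of 10 genes at low Pi with SynCom, against 19% of all genes called lower. The limit set by the filter for PAP5, PAP14, PAP23, PAP24 and PAP25 holds for this count too. Col-0 covers experiments A to E here, and the libraries labelled phr1phl1 cover C, D and E. Within C, D and E alone, 5 of the 6 members tested were called. PAP12 differed by -1.32 ± 0.15, PAP17 by -1.20 ± 0.33 (adjusted p = 0.00296), PAP22 by -4.06 ± 0.45, PAP24 by -4.24 ± 0.49, PAP25 by -3.54 ± 0.59 and PAP14 by -4.88 ± 0.77. With 0 counts in these libraries and the floor of 3 counts over its group, PAP5 was at least 106-fold lower and PAP23 at least 64.1-fold lower. PAP26 gave -0.09 ± 0.09 (adjusted p = 0.431). The PAP17 call was lost without experiment C (-0.99, adjusted p = 0.0641). Of the 7 tested root markers, 4 were lower, with a summed median of 1133 CPM (929 to 1672).

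Set directly against phr1 under the same condition, the libraries labelled phr1phl1 were lower for PAP12 alone, 1 of 10 genes against 1.72% of all genes called lower. PAP12 spanned 47.3, 96.3 and 134 CPM in phr1 and 37.7, 63.1 and 68.2 CPM in libraries labelled phr1phl1, and the log2 difference was -0.70 ± 0.15 (adjusted p = 0.00242). The PAP12 call was lost without experiment C (-0.65, adjusted p = 0.103) or D (-0.54, adjusted p = 0.187). PAP22 gave -1.51 ± 0.51 (adjusted p = 0.0863) and PAP17 -0.52 ± 0.32 (adjusted p = 0.421). Per exon length, PAP17 led the 10 genes in phr1 at low Pi with SynCom, at 91.2 CPM per kb against 55.7 CPM per kb for PAP26, and PAP26 had the highest mean in libraries labelled phr1phl1, at 49.8 against 43.3 CPM per kb. These ranges overlapped as well: PAP17 led in 6 of 10 phr1 libraries and PAP26 and PAP12 in 2 each, and in libraries labelled phr1phl1 PAP26 led in 4 of 6 and PAP17 in 2.

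The size of the Pi response itself was compared between genotypes with SynCom. Against Col-0, phr1 had a smaller response for PAP22 alone, by -2.24 ± 0.52 on the log2 scale (adjusted p = 0.00797), 1 of 10 genes against 1.95% of all genes called lower. Taken alone, 4 of 5 experiments gave a negative PAP22 difference and 1 a positive one, with a range of -3.12 to 2.14. PAP5, PAP14, PAP23 and PAP25 had 0 to 2 counts at high Pi in both genotypes, so this test has little to rest on for them. For PAP5 the difference was -7.51 ± 2.75 (adjusted p = 0.108) and negative in 4 of 4 experiments that gave a value, from -9.97 to -5.60. Without experiment E 4 genes passed: PAP5 (adjusted p = 0.0387), PAP12 (-0.52, adjusted p = 0.0300), PAP22 (-2.44, adjusted p = 0.00187) and PAP24 (-4.17, adjusted p = 0.0115). DESeq2 called 2 genes, and PAP22 lost its call when experiment A, B or D was left out (adjusted p = 0.178, 0.0952 and 0.0670). For libraries labelled phr1phl1 against Col-0, 4 genes had a smaller response, against 8.54% of all genes: PAP12 (-1.44 ± 0.21, adjusted p = 1.10e-06), PAP17 (-2.46 ± 0.54, 0.000769), PAP22 (-4.66 ± 0.80, 1.74e-05) and PAP14 (-8.87 ± 3.21, 0.0446). Responses of Col-0 and phr1 cover experiments A to E, those of libraries labelled phr1phl1 C, D and E alone. Within C, D and E alone, 3 of the 6 members tested passed for libraries labelled phr1phl1 against Col-0. The PAP14 value rests on 1 count in Col-0 and 3 in libraries labelled phr1phl1 at high Pi, and its call was lost without B, C, D or E (adjusted p = 0.0530, 0.204, 0.130 and 0.183) and without the libraries that stood apart (adjusted p = 0.0670). In both comparisons with Col-0, the limit set by the filter holds for PAP5, PAP14, PAP23, PAP24 and PAP25.

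Against phr1, libraries labelled phr1phl1 had a smaller Pi response for PAP12, by -1.06 ± 0.21 (adjusted p = 0.00743), 1 of 10 genes against 0.264% of all genes called lower. PAP12 lost that call when A, C or D was left out (adjusted p = 0.0554, 0.124 and 0.155), with the libraries of a group and experiment summed (-1.02, adjusted p = 0.177) and with no experiment term (-1.11, adjusted p = 0.112). PAP26 was called in neither comparison with Col-0, at -0.03 ± 0.10 for phr1 and 0.00 ± 0.12 for libraries labelled phr1phl1.

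Of the other 19 genes of the family, 12 had enough counts to be tested, and low Pi with SynCom raised 6 and lowered 2 of them in Col-0, where 27.5% of all genes were called higher and 22.4% lower. AT1G13750 rose most among them, by 2.99 ± 0.20 on the log2 scale, then PAP7 (2.54), PAP8 (1.60), PAP15 (1.23), PAP9 (0.42) and PAP27 (0.23). The 2 that fell were PAP3 (-0.62) and AT1G25230 (-0.28). In phr1 4 rose, AT1G13750 (2.30), PAP7 (1.40), PAP8 (0.71) and PAP15 (0.53), against 13.4% of all genes called higher. In libraries labelled phr1phl1 AT1G13750 rose (1.84), against 10.5% called higher, and PAP3 fell (-0.76), against 9% called lower.

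As a description, the gene outside the family whose mean log2 CPM over the 12 groups ran most nearly parallel was found for each member among 18904 genes. It was the phosphate transporter gene PHT1;7 for PAP5 (Pearson r = 0.995) and PAP23 (0.998), SPX1 for PAP12 (0.994) and SPX3 for PAP24 (0.990) and PAP25 (0.996), both genes of SPX proteins, which sense Pi. For PAP14 it was GDPD3 (0.996), for PAP17 PLDP2 (0.995), for PAP22 PLAT1 (0.973), for PAP10 AT2G28410 (0.932) and for PAP26 AT5G20090 (0.981). The 12 groups share experiments and depth, and the highest of all these values was chosen each time, so no test is given.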

How the data were processed

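The deposited values are raw counts of reads per gene from non-stranded poly(A) libraries of whole seedlings, per the labels' protocols. Per the submitters' processing notes, the authors used HTSeq 0.6.1p1, TopHat2 2.1.1, cutadapt 1.3 and CASAVA 1.8, and named the genome build TAIR10; their settings are not stated there. Of 27206 loci, 1788 had no count, and 0 columns were left unused. Genes passing edgeR's filterByExpr (18926) were fitted together over all libraries with edgeR 4.0.16 (TMM scaling, glmQLFit and glmQLFTest; R 4.3.3, limma 3.58.1), with 1 coefficient per group and the experiment as an additive term, and p-values were adjusted by Benjamini-Hochberg over all genes tested, with a threshold of 0.05. The test was also run on counts simulated with the same dispersion for every gene and no effect of the experiment. Only genes with a mean well above 0 were changed there, so that run does not cover genes near 0 counts. CPM are counts per 1000000 of the library total over the genes tested, after that total was adjusted by TMM scaling. The labels name separate experiments, but nothing says that the 2 libraries of a group and experiment came from separate plants, so part of the spread behind the p-values may be technical. No library pair of a group looked like a repeat deposit of one library (lowest chi-square per degree of freedom 1.92 over 420 pairs). Depth limits the precision: in the shallowest library, of 955174 counts, 1 count is just over 1 CPM. PAP5, PAP14, PAP23, PAP24 and PAP25 passed filterByExpr through Col-0 at low Pi with SynCom, so every comparison with that group is limited for them. Alternatives were DESeq2 1.42.0, RLE scaling, other filters, no experiment term, a replicate block, summed libraries, leaving out each experiment, the 3 experiments with all genotypes alone, and exclusion of libraries under 1000000 counts or with a residual SD over 0.65 (log2 CPM). The older quasi-likelihood method of edgeR, the window of 1000 bases before gene starts and the ratios without library 1 of experiment B (Col-0, low Pi, no bacteria) were added after seeing the data. Promoters and gene models came from RefSeq on TAIR10.1. Named genes were the 10 members, the other 19 family genes, the most parallel gene of each member, and PHR1 and PHL1. The members and lists were chosen with earlier results of these data known. No protein sequences were used here.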

Additional observations from a re-analysis of the deposited data

Results flagged for a closer look

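In 14 of the 103 combinations of gene and group that had any count, 1 library lay far from the rest of its group by Dixon's criterion, where chance flags about 1 in 20, and 17 combinations at 0 in every library were left out. That rate holds for continuous values. In 9 of the 14, every other library of the group was at 0, so a single value is flagged by construction and the count of 14 cannot be set against that rate. Col-0 at low Pi without bacteria held 3 of them, all in library 1 of experiment B: PAP14 at 4.28 CPM, PAP25 at 0.793 CPM and PAP23 at 0.159 CPM. PAP23 in phr1 at low Pi with SynCom reached 1.49 CPM in library 2 of experiment B, PAP12 in phr1 at high Pi without bacteria 30.6 CPM in library 1 of experiment C, and PAP25 in phr1 at low Pi without bacteria 0.443 CPM in library 1 of experiment C. PAP10 in phr1 at high Pi with SynCom had a low value of 3.001 CPM in library 2 of experiment D. The remaining 7 rest on 1 count each: PAP5 at 0.120 CPM in phr1 at high Pi without bacteria, PAP14 at 0.170 CPM in Col-0 at high Pi with SynCom and at 1.00 CPM in libraries labelled phr1phl1 at low Pi without bacteria, PAP23 at 0.174 CPM in phr1 at low Pi without bacteria, and PAP25 at 0.173 CPM in Col-0 at high Pi without bacteria, 0.384 CPM in Col-0 at high Pi with SynCom and 0.221 CPM in libraries labelled phr1phl1 at high Pi with SynCom.

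A tested difference between Pi responses drew attention to 16 further values, all on the log2 scale. With SynCom against no bacteria in Col-0 these were 0.92 for PAP10, 2.11 for PAP12, 4.59 for PAP17, 3.49 for PAP22 and 5.78 for PAP24. In phr1 they were 1.43 for PAP10, 1.88 for PAP12, 4.17 for PAP17 and 3.29 for PAP24, and in libraries labelled phr1phl1 2.30 for PAP17. Between genotypes with SynCom, phr1 minus Col-0 gave -2.24 for PAP22. The libraries labelled phr1phl1 minus Col-0 gave -1.44 for PAP12, -8.87 for PAP14, -2.46 for PAP17 and -4.66 for PAP22, and libraries labelled phr1phl1 minus phr1 gave -1.06 for PAP12.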

How the results depend on the processing

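Over 83 fold changes of the 10 genes and 15 alternatives, 1102 values kept their direction and their side of the threshold, 93 kept their direction and lost the call, and 2 changed sign. The 2 were the Pi effect on PAP26 in Col-0 with SynCom, never called, at -0.00912 without experiment C and -0.0529 without experiment E; leaving out each experiment in turn gave -0.0529 to 0.0873. The cause of the lost calls was not tested, beyond the fewer libraries or genes that some alternatives hold. RLE scaling and the filter of 5 CPM in 6 libraries changed no call.

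Counts of members called moved by over 1.5 times as follows. DESeq2 and the older quasi-likelihood method gave 2 in place of 1 for the Pi response of phr1 against Col-0. With no experiment term the count was 0 for SynCom in phr1 at high Pi, for the Pi by SynCom interaction in libraries labelled phr1phl1, and for the Pi response of phr1 against Col-0 and of libraries labelled phr1phl1 against phr1. With the libraries of a group and experiment summed, it was 0 for these 4, for libraries labelled phr1phl1 against Col-0 at low Pi without bacteria and at high Pi with SynCom, and for libraries labelled phr1phl1 against phr1 at low Pi with SynCom. In experiments C, D and E alone, where PAP5, PAP23, PAP24 and PAP25 were too low to be tested, the counts were 5 for low Pi with SynCom in Col-0 and 5 in phr1, 5 for SynCom at low Pi in Col-0 and 4 in phr1, and 0 for SynCom in phr1 at high Pi. For phr1 against Col-0 they were 0 at high Pi without bacteria, 0 at high Pi with SynCom and 3 at low Pi with SynCom. For libraries labelled phr1phl1 they were 0 against Col-0 at high Pi with SynCom, 5 against Col-0 and 2 against phr1 at low Pi with SynCom. The interaction of Pi and SynCom in Col-0 gave 3 and the Pi response of phr1 against Col-0 gave 0.

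Leaving out each experiment in turn gave 0 to 1 for SynCom in phr1 at high Pi, 0 to 4 for the Pi response of phr1 against Col-0, 0 to 1 for that of libraries labelled phr1phl1 against phr1 and 0 to 2 for the Pi by SynCom interaction in libraries labelled phr1phl1. It gave 0 to 1 for libraries labelled phr1phl1 against Col-0 at high Pi without bacteria, low Pi without bacteria and high Pi with SynCom, and 0 to 1 for libraries labelled phr1phl1 against phr1 at low Pi with SynCom. For low Pi with SynCom it gave 7 to 9 in Col-0 and 6 to 8 in phr1, and 8 members were tested without experiment A or B, PAP23 and PAP25 being too low. For SynCom at low Pi it gave 7 to 10 in Col-0 and 6 to 7 in phr1, for phr1 against Col-0 at low Pi with SynCom 6 to 9, and for low Pi with SynCom in libraries labelled phr1phl1 2 to 3.

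The replicate block of experiment and number moved no count by over 1.5 times. With it, PAP10 at low Pi with SynCom in libraries labelled phr1phl1 (0.79, adjusted p = 0.0548 by edgeR) and PAP17 in phr1 against Col-0 at low Pi with SynCom (-0.69, adjusted p = 0.0532) lost their calls, and no other fold change lost its call. Deviations of same-numbered libraries of an experiment correlated at a median of 0.508, and those of other numbers at 0.505, so the numbers themselves did not pair libraries. P1BS was found in 6 members in the window of 300 bases, 5 before the start alone and 6 in 1000 bases. Depth limits PAP5, PAP14, PAP23 and PAP25 most, whose ratios mostly rest on 0 to 3 counts in the lower group. For SynCom against no bacteria in Col-0 at low Pi, the lower group held 9 counts of PAP5, 27 of PAP14 and 8 of PAP25.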
